A study of Homo sapiens with 9 samples.

Results

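The genes described are 8 enzymes of purine salvage and guanine nucleotide synthesis in RNA-sequencing data of cells labelled human neuroblastoma. Guanine deaminase (GDA) was chosen by its value, as the largest decrease among the 22290 genes of the table between the libraries labelled TRAP-1 knockdown (KD) and the parental libraries (PAR). The other 7 were named by enzyme role and are HPRT1, APRT, PNP, ADA, IMPDH1, IMPDH2 and GMPS. All 8 had a value in every library. The study asked how TRAP-1, a mitochondrial chaperone of the Hsp90 family encoded by TRAP1, bears on the metabolism of cancer cells. Total RNA came from cells labelled IMR-32, an established human neuroblastoma line, in 3 groups of 3 libraries: unmodified parental cells, cells labelled KD and cells labelled TRAP-1 overexpression (OE). The sources used here do not describe how TRAP-1 was lowered or raised in these lines, nor whether a line was a clone. RNA was isolated in triplicate, and nothing states that the replicates were separate cultures, so p-values measure only the spread between these samples, which may be technical. Values are rlog levels, that is log2 read counts that DESeq2 adjusts for library size and draws toward the average of the gene, and a difference is a difference of group means on that scale. Shrinkage makes these differences smaller than log2 fold changes of counts, more so at low levels. The median rlog level of a library was 7.03 to 7.06.

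Cells obtain purine nucleotides by building them from small precursors or by salvage, in which free bases and nucleosides are turned back into nucleotides. In salvage, phosphoribosyltransferases join a base to activated ribose phosphate, while deaminases and phosphorylases act on bases and nucleosides and feed either salvage or breakdown to xanthine and uric acid. Guanine nucleotides are made from IMP through XMP, and guanine deaminase takes guanine out of the pool by turning it into xanthine. In neurons guanine deaminase is also known as cypin, a protein studied for its role in dendrite branching, and loss of HPRT1 function causes Lesch-Nyhan disease, a disorder of the nervous system.

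GDA had a rlog level of 9.59 ± 0.029 (SD, n = 3) in parental libraries, 6.99 ± 0.074 (SD, n = 3) in libraries labelled KD and 8.97 ± 0.045 (SD, n = 3) in libraries labelled OE. Differences of the other 7 genes from parental were between -0.24 and 0.16 in KD and between -0.21 and 0.11 in OE. HPRT1, PNP and IMPDH1 fell in KD, while APRT, ADA and GMPS rose there. In OE, APRT, PNP and IMPDH1 fell and IMPDH2 rose. The calls of GMPS in KD and of APRT in OE were lost with the median of the 20-Mb block removed.

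**Figure D1:**
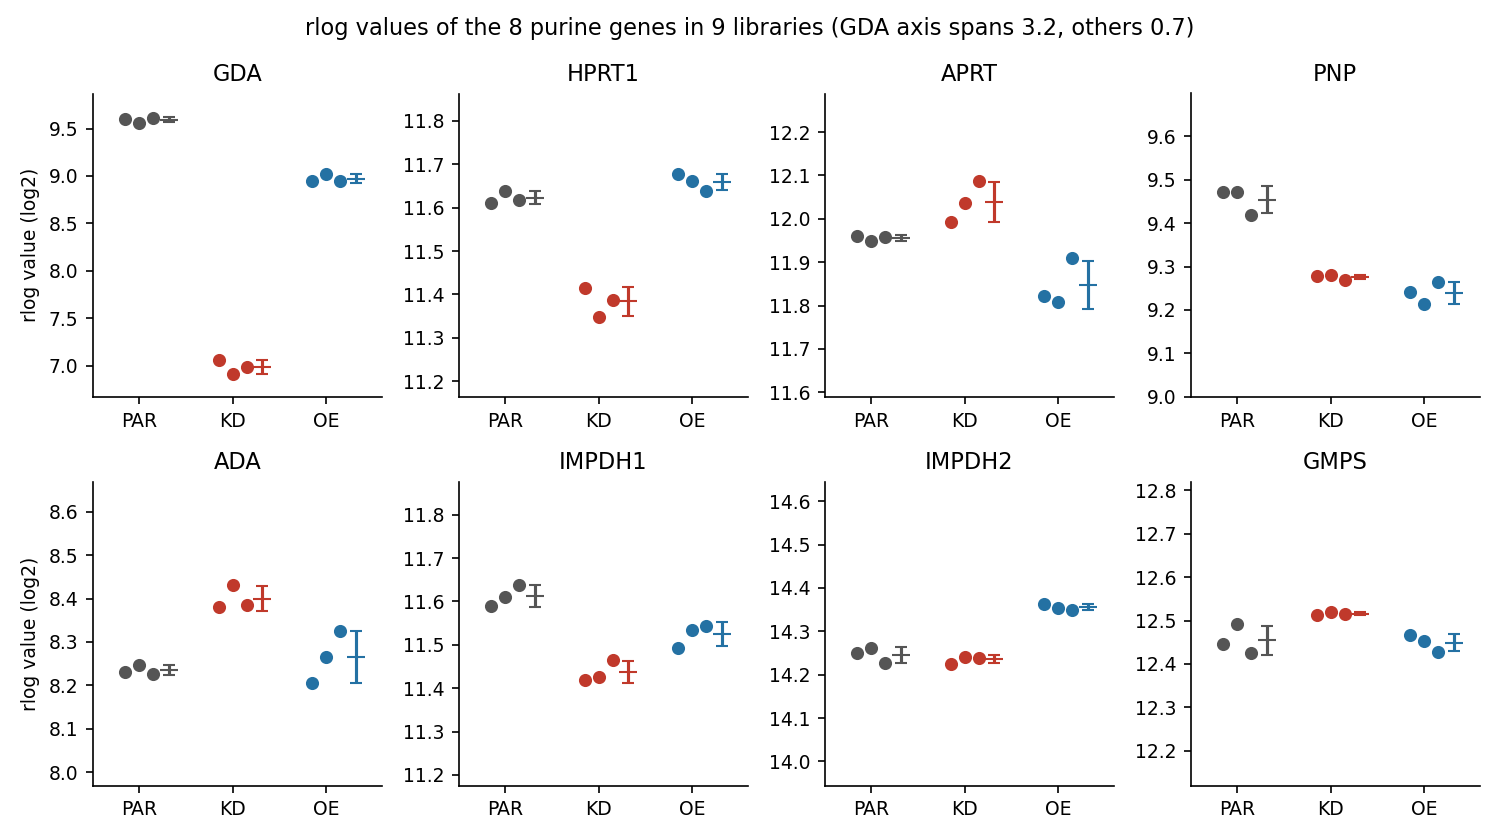
rlog levels (log2) of the 8 genes in each of the 9 libraries by group, with the mean and SD of each group (n = 3) to the right of its points. The vertical axis of GDA spans more than that of the other genes, and its 3 libraries labelled KD lie between 6.92 and 7.06, below all others.

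The targeted gene checks the labels. TRAP1 (ENSG00000126602) stood at rlog levels of 10.67, 10.66 and 10.65 in the parental libraries, at 10.79, 10.79 and 10.83 in those labelled KD and at 10.67, 10.63 and 10.74 in those labelled OE. All 3 libraries labelled KD were thus above the parental libraries, against their label, and those labelled OE overlapped parental. TRAP1 was higher in KD by 0.14 (adjusted p = 1.8e-05 from limma), and its OE difference was 0.018 (adjusted p = 0.643 from limma). The OE difference was 0.060 with the 20-Mb block median removed (adjusted p = 0.0505 from limma), -3.9e-05 after median centring and -0.012 without OE replicate 3, so its sign is not settled. Other annotated genes share 28.5% of its exonic bases. KD and OE are therefore used throughout as labels of libraries, and every direction refers to those labels.

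The labelled cell type was checked against its markers. Of 15 markers of adrenergic neuroblastoma, 10 were in the table and 5 of these had a parental rlog level of at least 5. These were ISL1 at 9.37, GATA2 at 9.27, GATA3 at 7.25, HAND2 at 6.36 and CHGB at 5.87. Other markers were low, with parental levels of 1.33 for PHOX2A, 2.52 for MYCN and 2.84 for TH, and DBH, DDC, STMN2 and ELAVL4 were among those not analysed here. The markers thus went both ways. MYCN is amplified in the IMR-32 line, so its low level goes against the labelled cell line. The cells are described as authenticated before use, and the identity of the cells was not tested further. The log2 of the summed level of the adrenergic markers was 10.67, 10.64 and 10.65 in PAR, 10.53, 10.51 and 10.55 in KD, and 10.55, 10.63 and 10.59 in OE. Of these sums, all those of libraries labelled KD or OE lay below parental.

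Markers of other cell types were present as well. All 6 mesenchymal markers were in the table, with VIM at 15.72 as the most abundant, PRRX1 at 11.70, TWIST1 at 8.85, and COL1A2 and COL3A1 at 1.35 and 1.16. PRRX1 had the largest differences of any listed marker, 1.29 in KD and 0.69 in OE, and those of TWIST1 were 0.43 and 0.28 and those of VIM 0.36 and 0.15. The log2 summed level of the mesenchymal markers was 15.82, 15.82 and 15.82 in PAR, 16.25, 16.26 and 16.25 in KD, and 16.02, 15.99 and 16.02 in OE, so that the groups did not overlap. Of 14 epithelial markers 11 were in the table, led by KRT18 at 12.06, with EPCAM at 2.59 and CDH1 not analysed here. Their log2 summed level was 12.75, 12.76 and 12.74 in PAR, 12.79, 12.83 and 12.84 in KD, and 12.61, 12.60 and 12.61 in OE, again with no overlap. Single epithelial markers went both ways, with differences in KD of -0.70 for KRT14, -0.27 for KRT7, 0.39 for KRT8 and 0.37 for DSP, and in OE of 0.40 for KRT8 and -0.57 for CLDN4. Of 5 blood cell markers 2 were in the table, LYZ at 5.99 and PTPRC at 2.65, and their log2 summed level was 6.12, 6.15 and 6.10 in PAR, 5.84, 5.87 and 5.83 in KD, and 5.90, 5.91 and 6.04 in OE. The blood cell sums of libraries labelled KD and OE were all below parental, and they mostly reflect LYZ, the more abundant of the 2. PTPRC was not called, with differences of -0.016 in KD (adjusted p = 0.658 from limma) and 0.011 in OE (adjusted p = 0.803 from limma). These sums therefore do not describe blood cells as a whole. The part of these shifts in the purine gene results was not tested, and in bulk RNA fewer cells of a type and less RNA per cell cannot be told apart.

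Promoter sequences are shown for the 4 genes with lower levels in KD, because these moved in the same direction. RefSeq promoters on GRCh38.p14, from 250 bases before to 50 bases after the start, matched 7 of the 8 genes, all but IMPDH2. Capitals mark the GC box GGGCGG on either strand, the sequence that zinc finger factors of the SP family recognise. The windows are chr9:72149190-72149489 on the plus strand for GDA, chrX:134459915-134460214 on the plus strand for HPRT1, chr14:20469156-20469455 on the plus strand for PNP and chr7:128409933-128410232 on the minus strand for IMPDH1. For GDA, PNP and ADA the outermost start in GENCODE lies upstream of the window.
GDA: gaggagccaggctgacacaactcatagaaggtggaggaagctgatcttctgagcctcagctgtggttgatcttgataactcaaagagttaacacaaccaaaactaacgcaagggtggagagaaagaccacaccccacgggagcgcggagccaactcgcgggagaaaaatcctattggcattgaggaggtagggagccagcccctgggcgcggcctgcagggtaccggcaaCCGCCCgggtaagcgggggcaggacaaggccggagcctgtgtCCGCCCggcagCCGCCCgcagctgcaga
HPRT1: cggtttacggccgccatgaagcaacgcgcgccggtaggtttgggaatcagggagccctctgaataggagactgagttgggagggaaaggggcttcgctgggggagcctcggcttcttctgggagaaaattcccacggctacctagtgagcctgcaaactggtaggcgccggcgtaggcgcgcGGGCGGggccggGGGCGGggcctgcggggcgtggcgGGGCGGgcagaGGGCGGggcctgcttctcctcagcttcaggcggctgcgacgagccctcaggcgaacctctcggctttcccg
PNP: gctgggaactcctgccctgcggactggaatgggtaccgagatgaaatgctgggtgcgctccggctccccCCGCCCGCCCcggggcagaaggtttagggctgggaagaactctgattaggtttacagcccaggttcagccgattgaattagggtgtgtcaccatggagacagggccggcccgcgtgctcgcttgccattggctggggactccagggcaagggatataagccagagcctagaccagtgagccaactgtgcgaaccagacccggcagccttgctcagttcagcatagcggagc
IMPDH1: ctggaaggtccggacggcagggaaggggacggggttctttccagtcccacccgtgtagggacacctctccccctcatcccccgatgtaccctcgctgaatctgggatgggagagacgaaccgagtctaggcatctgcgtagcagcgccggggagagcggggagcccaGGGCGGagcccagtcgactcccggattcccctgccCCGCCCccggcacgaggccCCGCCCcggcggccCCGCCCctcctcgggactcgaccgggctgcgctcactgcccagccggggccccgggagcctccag
The GDA window held 3 GC boxes, HPRT1 4, PNP 2 that overlap each other, and IMPDH1 4. The windows of APRT, ADA and GMPS held 3, 5 and 4. A GC box was thus present in 7 of 7 windows, against 45.0% of 35116 RefSeq promoters of 300 bases. The E-box CACGTG and the TATA sequence TATAAA, each searched on both strands, were in 0 of 7 windows, against 7.26% and 11.5% of all promoters. GC content was 60.7% for GDA, 61.7% for PNP, 67.3% for APRT, 68.7% for HPRT1, 72.7% for IMPDH1 and 79.3% for both ADA and GMPS, above the median of 58.7% over all promoters. The genes that rose in KD and those that fell both had GC boxes, and a match of letters is a description only.

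GDA (ENSG00000119125) is a protein-coding gene of chromosome 9 (GRCh38, 72114595 to 72257193, plus strand), sharing no exonic base with another annotated gene. Its rlog levels were 9.61, 9.56 and 9.62 in the parental libraries, 7.06, 6.92 and 6.99 in those labelled KD, and 8.95, 9.03 and 8.94 in those labelled OE. The 3 groups did not overlap, with PAR highest, OE below it and KD far below both. The KD difference was -2.60 (standard error 0.038), ahead of LINC00665 with -2.57 and MYH14 with -2.28. Because GDA was selected on this difference, it is given without a test, as is the difference of 1.98 between OE and KD, which uses the same libraries. Its difference from parental was -0.62 in OE, where it ranked 36 among decreases. This value reuses the parental libraries on which GDA was selected and is likewise given without a test.

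The 5 genes nearest to GDA by the root mean square difference of their 9 values, each taken from the parental mean, were ADGRL2 (0.273), an adhesion receptor, LINC00665 (0.332), a long noncoding RNA, ZNF682 (0.385), a zinc finger gene, MYH14 (0.400), a nonmuscle myosin heavy chain, and DKK1 (0.422), an inhibitor of Wnt signaling. They lie on chromosomes 1, 10 and 19, and none is on the chromosome of GDA. Their KD differences ranged from -2.57 for LINC00665 to -1.89 for DKK1. Their OE differences were -0.52 for DKK1, -0.30 for ADGRL2, -0.081 for ZNF682, -0.056 for LINC00665 and -0.011 for MYH14. Because all 9 values entered the choice of these genes, their differences are given without a test.

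Genes near GDA were lower in KD too, by much less. Of 6 genes whose mean rlog level is 5 or more and that start within 1 Mb of GDA, CEMIP2 (-0.58), ABHD17B (-0.46), ZFAND5 (-0.31) and C9orf85 (-0.31) fell in KD, TRPM3 (0.25) rose, and TMC1 (-0.071) did not pass the test. In OE, CEMIP2 (-0.35) and ABHD17B (-0.095) fell, TRPM3 (0.15) and TMC1 (0.13) rose, and C9orf85 (-0.034) and ZFAND5 (-0.026) did not pass. In the 20-Mb block that holds GDA, 88% of 50 other genes with a mean rlog level of 5 or more had a KD difference below 0. Their median was -0.25, and 34 were called lower and 2 higher, beside 26.9% lower and 26.9% higher over all genes. The shares over all genes include genes of lower levels, so they are not matched by level. That GDA was the lowest of its block in KD follows from how it was chosen. With the block median removed, its difference was -2.34 in KD and -0.59 in OE. Here and below the median removed is taken in each library over the genes of the block with a mean rlog level of 5 or more, the named gene among them. It is the median of their deviations from the mean of each gene, which can differ from the median of the differences.

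**Figure D2:**
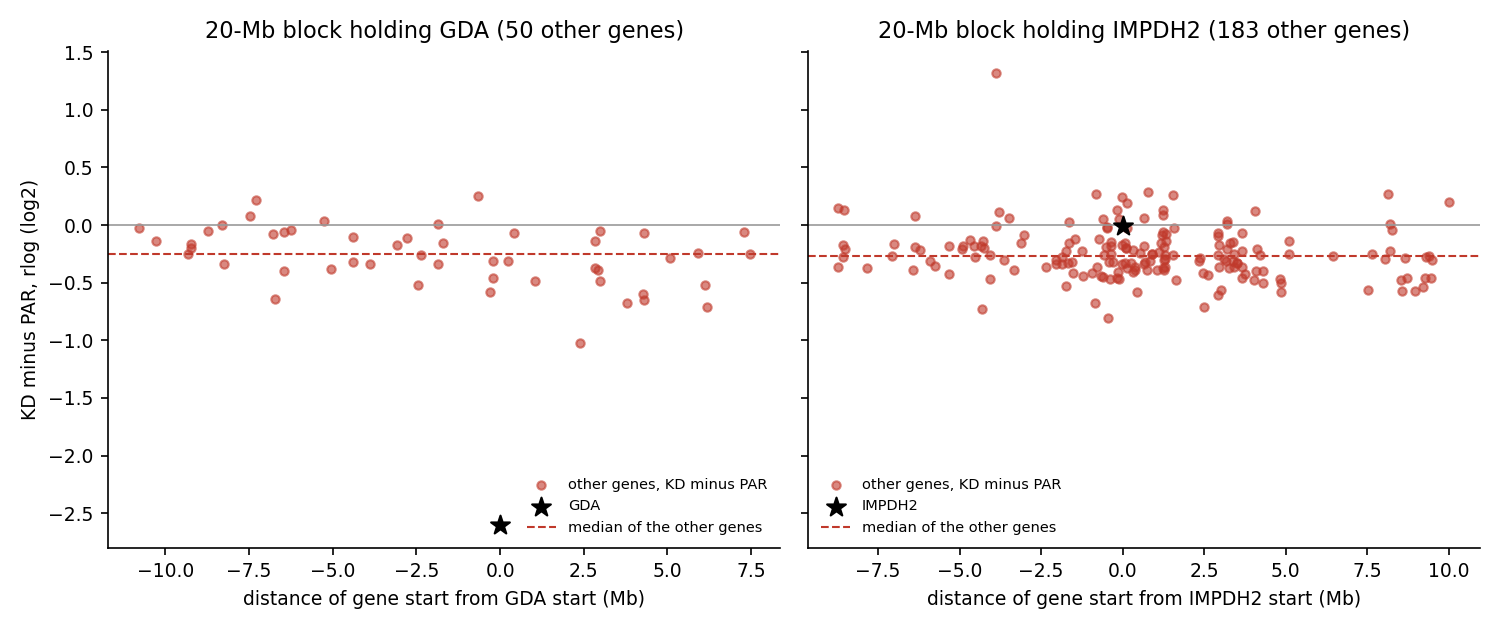
KD minus PAR differences of rlog (log2) of all genes whose mean level is 5 or more in the 20-Mb blocks that hold GDA and IMPDH2, against the distance of their start from the start of that gene in Mb. The star is the named gene and the dashed line the median of the other genes (-0.25 and -0.27): GDA lies far below its block, and IMPDH2 (-0.011) lies above 158 of its 183 neighbours.

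HPRT1 (ENSG00000165704, chromosome X from 134460165 to 134520513, plus strand), which turns hypoxanthine and guanine into IMP and GMP, had rlog levels of 11.61, 11.64 and 11.62 in PAR, 11.42, 11.35 and 11.39 in KD, and 11.68, 11.66 and 11.64 in OE. All 3 libraries labelled KD were below the other 6, and PAR and OE overlapped. HPRT1 fell by 0.24 in KD (95% confidence interval -0.28 to -0.20, adjusted p = 8.3e-12 from limma). Its OE difference was 0.036 (adjusted p = 0.187 from limma), which passed the test after quantile normalization (0.062, adjusted p = 0.0186 from limma). It was higher in OE than in KD by 0.28 (adjusted p = 4.2e-13 from limma). HPRT1 has 3 annotated pseudogenes, which were not analysed here.

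APRT (ENSG00000198931, chromosome 16 from 88809339 to 88811937, minus strand), which turns adenine into AMP, had rlog levels of 11.96, 11.95 and 11.96 in PAR, 11.99, 12.04 and 12.09 in KD, and 11.82, 11.81 and 11.91 in OE. The groups did not overlap, with KD highest and OE lowest. APRT was higher in KD by 0.082 (adjusted p = 0.00272 from limma), fell by 0.11 in OE (adjusted p = 2.6e-04 from limma) and was lower in OE than in KD, with a difference of -0.19 (adjusted p = 1.6e-08 from limma). In its 20-Mb block 80 other genes had a median of -0.062 in KD and -0.079 in OE. With the block median removed, the KD difference of APRT was 0.14 (adjusted p = 2.1e-06 from limma) and its OE call was lost (-0.039, adjusted p = 0.164 from limma).

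PNP (ENSG00000198805, chromosome 14 from 20461992 to 20477094, plus strand), which splits inosine and guanosine into base and ribose phosphate, had rlog levels of 9.47, 9.47 and 9.42 in PAR, 9.28, 9.28 and 9.27 in KD, and 9.24, 9.21 and 9.26 in OE. Every library labelled KD or OE was below every parental library. PNP fell by 0.18 in KD (95% confidence interval -0.24 to -0.12, adjusted p = 5.0e-06 from limma) and fell by 0.21 in OE (95% confidence interval -0.27 to -0.15, adjusted p = 5.5e-07 from limma), comparisons that share the parental libraries. Between OE and KD the difference was -0.036 (95% confidence interval -0.097 to 0.025, adjusted p = 0.347 from limma). In the 20-Mb block of PNP the median of 115 other genes was 0.051 in KD and 0.015 in OE. An opposite-strand long noncoding gene shares 8.41% of the exonic bases of PNP.

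ADA (ENSG00000196839, chromosome 20 from 44584896 to 44652252, minus strand), which deaminates adenosine to inosine, had rlog levels of 8.23, 8.25 and 8.23 in PAR, 8.38, 8.43 and 8.39 in KD, and 8.21, 8.27 and 8.32 in OE. The libraries labelled KD were the 3 highest, and OE spread around PAR. ADA was higher in KD by 0.16 (95% confidence interval 0.089 to 0.24, adjusted p = 3.2e-04 from limma), and its OE difference was 0.031 (adjusted p = 0.585 from limma), which ranged from 7.6e-04 to 0.061 on leaving out 1 library. Between OE and KD it was -0.13 (adjusted p = 0.00317 from limma), a call lost with the median of the 20-Mb block removed (-0.063, adjusted p = 0.147 from limma). Of the exonic bases of ADA, 7.01% are shared with PKIG on the opposite strand, which had a mean rlog level of 10.21. The library kit does not mark strand, so reads of the shared bases cannot be told apart.

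IMPDH1 and IMPDH2 encode isozymes of IMP dehydrogenase, which makes XMP from IMP and sets the rate of guanine nucleotide synthesis. IMPDH1 (ENSG00000106348, chromosome 7 from 128392277 to 128409986, minus strand) had rlog levels of 11.59, 11.61 and 11.64 in PAR, 11.42, 11.43 and 11.47 in KD, and 11.49, 11.54 and 11.54 in OE. IMPDH2 (ENSG00000178035, chromosome 3 from 49024325 to 49029447, minus strand) had 14.25, 14.26 and 14.23 in PAR, 14.22, 14.24 and 14.24 in KD, and 14.36, 14.35 and 14.35 in OE. For IMPDH1 the groups did not overlap and KD was lowest, while for IMPDH2 the libraries labelled OE stood above the other 6 and KD overlapped PAR. IMPDH1 fell by 0.18 in KD (adjusted p = 1.1e-08 from limma) and fell by 0.088 in OE (adjusted p = 9.9e-04 from limma), and it was higher in OE than in KD by 0.087 (adjusted p = 7.5e-04 from limma). IMPDH2 was higher in OE by 0.11 than in PAR (adjusted p = 4.1e-09 from limma) and by 0.12 than in KD (adjusted p = 2.4e-10 from limma). Its KD difference was -0.011 (95% confidence interval -0.035 to 0.014, adjusted p = 0.482 from limma).

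Most neighbours of IMPDH2 were called lower in KD, where IMPDH2 was not called. In its 20-Mb block 86.9% of 183 other genes had a KD difference below 0, with a median of -0.27, and 149 were called lower and 15 higher, beside 26.9% each way over all genes. Within 1 Mb there were 50 such genes, of which 39 were called lower in KD and 7 higher. Between OE and KD the block moved in the same direction as IMPDH2, with a median of 0.29. There 154 of the 183 were called higher in OE and 8 lower, beside 23.5% and 23.8% over all genes. Within 1 Mb these counts were 41 and 3. The shares over all genes, in KD and between OE and KD, include genes of lower levels and are not matched to the block by level. With the block median removed IMPDH2 was higher in KD by 0.26 (adjusted p = 6.8e-18 from limma), and its difference between OE and KD turned to -0.16 (adjusted p = 1.8e-12 from limma). The OE difference from parental was 0.10 with the block median removed (adjusted p = 2.1e-08 from limma), where the median of the block was 0.0073. A protein-coding gene annotated on the same strand, not analysed here, shares 32.8% of the exonic bases of IMPDH2. IMPDH1 has 10 annotated pseudogenes, of which IMPDH1P8 (6.01 in PAR and 6.25 in KD) and IMPDH1P5 (3.73 in PAR and 3.80 in KD) were in the table. IMPDH1P8 was called higher in KD (adjusted p = 1.5e-04 from limma), the opposite direction to IMPDH1, and IMPDH1P5 was not (adjusted p = 0.161 from limma).

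Within each library, the rlog level of IMPDH2 less that of IMPDH1 was 2.66, 2.65 and 2.59 in PAR, 2.81, 2.82 and 2.77 in KD, and 2.87, 2.82 and 2.80 in OE. The parental libraries had the 3 smallest values, and KD and OE overlapped. This quantity was greater than in PAR by 0.16 in KD and by 0.20 in OE, each with an exact two-sided permutation p of 0.1 (adjusted over 3 comparisons 0.15), the smallest that 3 against 3 libraries can give. Between OE and KD it differed by 0.033 (exact permutation p = 0.3, adjusted 0.3).

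GMPS (ENSG00000163655, chromosome 3 from 155870650 to 155944020, plus strand), which turns XMP into GMP, had rlog levels of 12.45, 12.49 and 12.42 in PAR, 12.51, 12.52 and 12.52 in KD, and 12.47, 12.45 and 12.43 in OE. The libraries labelled KD were the 3 highest, and OE lay within the range of PAR. GMPS was higher in KD by 0.061 (adjusted p = 0.00369 from limma), a call lost with the block median removed (0.037, adjusted p = 0.0806 from limma). Its OE difference was -0.0051 (95% confidence interval -0.041 to 0.031, adjusted p = 0.862 from limma), and between OE and KD it was -0.066 (adjusted p = 0.00211 from limma). The pseudogene GMPSP1 had a parental level of 5.64.

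**Figure D3:**
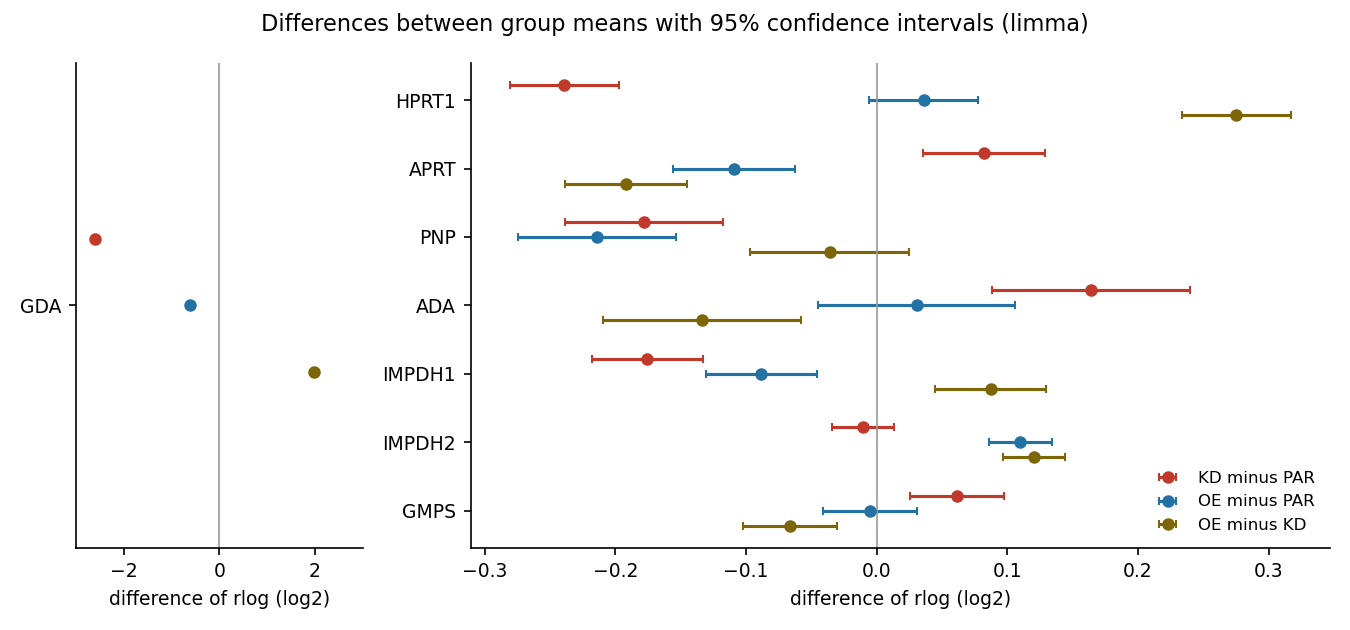
Differences of rlog (log2) between group means for the 8 genes, with 95% confidence intervals from limma for all but GDA. GDA is on a wider axis, where its KD minus PAR (-2.60) and OE minus KD (1.98) differences and its OE minus PAR difference (-0.62) carry no interval, because the gene was selected on these libraries. Intervals that cross 0 belong to HPRT1, ADA and GMPS in OE minus PAR, PNP in OE minus KD and IMPDH2 in KD minus PAR.

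A gene was called at an adjusted p under 0.05. Of the 7 genes tested in KD against PAR 6 were called, 3 higher and 3 lower, beside 53.7% of all genes called, 26.9% higher and 26.9% lower. Nothing is read from this, since the choice of GDA used the same contrast. GDA is left out of the counts of calls, since its choice used parental and KD libraries. In OE against PAR 4 of the 7 were called, 1 higher and 3 lower, beside 34.8% of all genes called, 16.9% higher and 18.0% lower. In OE against KD 6 of 7 were called, 3 higher and 3 lower, beside 47.3% of all genes, 23.5% higher and 23.8% lower. With a difference over 0.5 required as well, 0 of 7 were called in KD, in OE and between OE and KD alike, beside 4.98%, 0.897% and 3.56% of all genes. The median absolute difference of these 7 genes was 0.16 in KD, 0.088 in OE and 0.12 between OE and KD, beside 0.081, 0.048 and 0.065 over all genes. All 8 had a mean rlog level of at least 8.30, above the library medians, where shrinkage is weaker. The shares and medians over all genes include genes of lower levels, so they are not matched to the 7 genes by level.

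Levels of different genes were compared per length, as the rlog level less the log2 of exonic length in kb. In PAR the order on this scale was IMPDH2 (11.89), APRT (11.11), HPRT1 (10.93), IMPDH1 (9.85), GMPS (9.32), PNP (6.91), GDA (6.61) and ADA (4.63). The smallest gap between neighbours in this order was 0.18, between APRT and HPRT1. The SD of either gene (0.0067 and 0.015, n = 3) measures the spread between libraries and not the uncertainty of the length. Lengths here cover all annotated exons of a gene, 12177 bases for ADA and 5123 for IMPDH2. The length that the authors counted over is not given in the sources used here, so the order depends on the annotated lengths. The order was the same in OE. In KD, GDA at 4.01 was below ADA at 4.79 and ranked last.

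**Figure D4:**
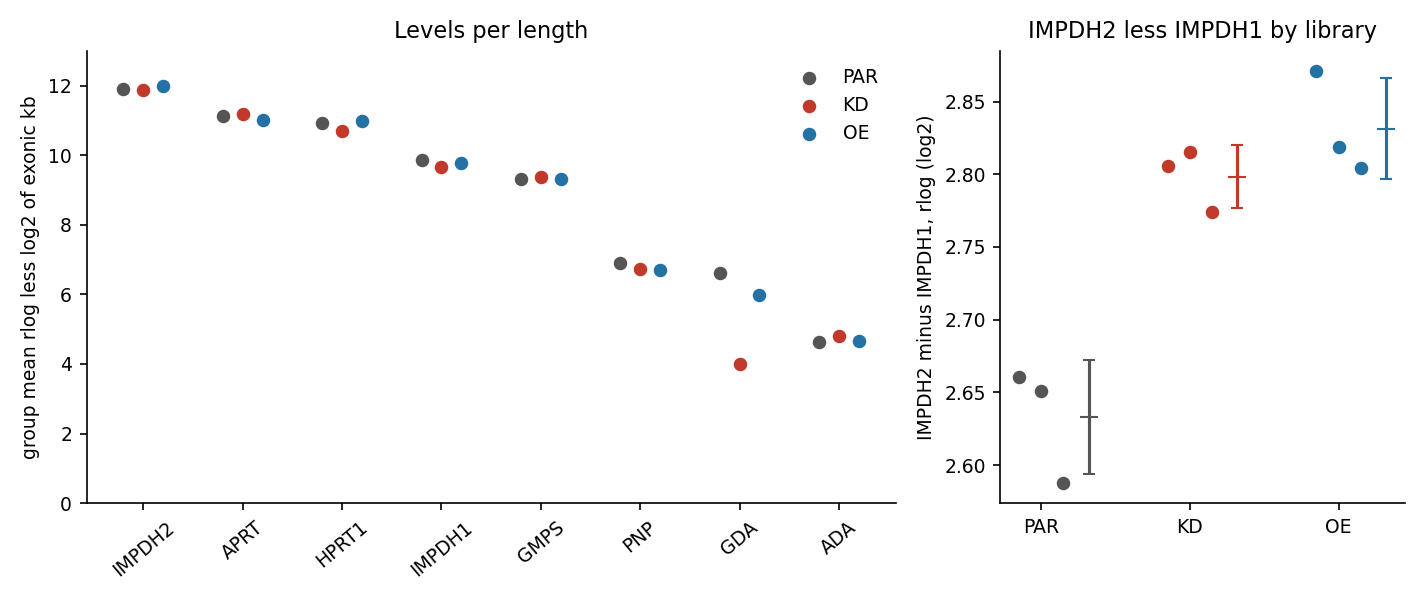
Left, group mean rlog less the log2 of exonic length in kb for the 8 genes in PAR, KD and OE, where GDA lies above ADA in PAR and OE and below it in KD. Right, IMPDH2 less IMPDH1 in rlog (log2) for each library with the mean and SD of the group (n = 3), where the parental values (2.59 to 2.66) lie below all others.

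Other genes of purine metabolism were counted from a list of 53, of which 46 had values. ADSL, AMPD1, NME1, NME2, NT5C1B, MTAP and SLC28A2 were not analysed here. In KD 29 were called (63.0%), 7 higher and 22 lower, and in OE 22 (47.8%), 6 higher and 16 lower. Over all genes these shares were 53.7% in KD, 26.9% each way, and 34.8% in OE, 16.9% higher and 18.0% lower, and the counts by role are to be read beside the same shares. Between OE and KD 27 were called, 18 higher in OE and 9 lower, beside 47.3% of all genes, 23.5% higher and 23.8% lower. Their median difference was -0.053 in KD and -0.038 in OE, beside -5.1e-04 and 3.9e-04 over all genes. Of the 46, 40 had a mean rlog level of at least 5, and the values over all genes are not matched to them by level.

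Of 7 genes of de novo synthesis, which builds the purine ring, 5 fell in KD and 0 rose, and in OE 3 fell and 1 rose. GART lost its OE call under several alternatives, among them quantile normalization (-0.0149), and its KD call without KD replicate 3 (-0.0355). After median centring, PPAT, PFAS and ATIC were called lower in OE. PRPS1, which makes the activated ribose phosphate that salvage also uses, fell by 0.26 in KD (adjusted p = 1.0e-11 from limma), and its homolog PRPS2 fell by 0.11 in OE (adjusted p = 9.4e-06 from limma). PRPS1 in OE (-0.095) and PRPS2 in KD (-0.22) were called lower as well. With the median of the 20-Mb block removed, these 2 differences were -0.196 and -0.152. All 3 ribonucleotide reductase genes, which supply deoxynucleotides, fell in KD and in OE. The largest of these differences were -0.19 for RRM2B in KD (adjusted p = 2.5e-09 from limma) and -0.23 for RRM2 in OE (adjusted p = 9.6e-15 from limma).

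Of 6 genes that interconvert AMP, IMP and GMP, 3 rose and 1 fell in KD, and 1 rose and 2 fell in OE. With the block median removed, AMPD2 (0.0465) and GMPR2 (0.046) lost their KD calls, as higher genes, and ADSS2 (-0.0318) lost its OE call. The ADSS2 call in OE was lost under several other alternatives too. AMPD3, an AMP deaminase that forms IMP, was higher by 0.63 in KD (adjusted p = 4.1e-14 from limma) and by 0.36 in OE (adjusted p = 4.9e-08 from limma). Of 10 nucleoside and nucleotide kinases, 2 rose and 5 fell in KD, and 2 rose and 3 fell in OE. With the block median removed, AK3 lost its KD call (0.17 to 0.0503) and DCK was called lower in KD (-0.335). DGUOK lost its KD call under several alternatives, among them leaving out KD replicate 1 (0.071 to 0.0478). In OE, AK1 (-0.101) and DCK (0.0424) lost their calls under the block step, and AK5 without PAR replicate 3 (0.145). The adenylate kinase AK1 fell by 0.64 in KD (adjusted p = 3.2e-14 from limma), and had a difference of -0.31 with the median of its 20-Mb block removed. Other annotated genes share 34.5% of its exonic bases. AK4, a mitochondrial adenylate kinase, was higher in OE by 0.22 (adjusted p = 1.5e-10 from limma) and fell by 0.055 in KD (adjusted p = 0.0197 from limma). The KD call of AK4 was lost without PAR replicate 1 (-0.0533), PAR replicate 2 (-0.0399) or KD replicate 3 (-0.0505).

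Of 13 nucleotidase and breakdown genes, 1 rose and 6 fell in KD, and 1 rose and 3 fell in OE. NT5E, which rose in KD (0.071), lost its call with the median of the 20-Mb block removed (0.0186). NT5C, NT5C1A and ADA2 were then called higher in KD. In OE, NT5C1A and ADA2 were then called higher, and NT5C3A and NT5E lower. SAMHD1, which removes the triphosphate from deoxynucleotides, fell by 0.57 in KD (adjusted p = 3.1e-16 from limma), and had a difference of -0.28 with the block median removed. Its OE call (-0.12) was lost under the same step (-0.0205). XDH, xanthine dehydrogenase, which turns the xanthine made by guanine deaminase into uric acid, fell by 0.34 in OE (adjusted p = 7.3e-07 from limma) and by 0.31 in KD (adjusted p = 1.8e-06 from limma). Of 7 transporter genes, 1 rose and 2 fell in KD, and 1 rose and 2 fell in OE. SLC29A1, an equilibrative nucleoside transporter, fell by 0.27 in KD (adjusted p = 4.2e-11 from limma), and SLC29A4, of the same family, was higher in OE by 0.51 (adjusted p = 2.4e-10 from limma).

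**Figure D5:**
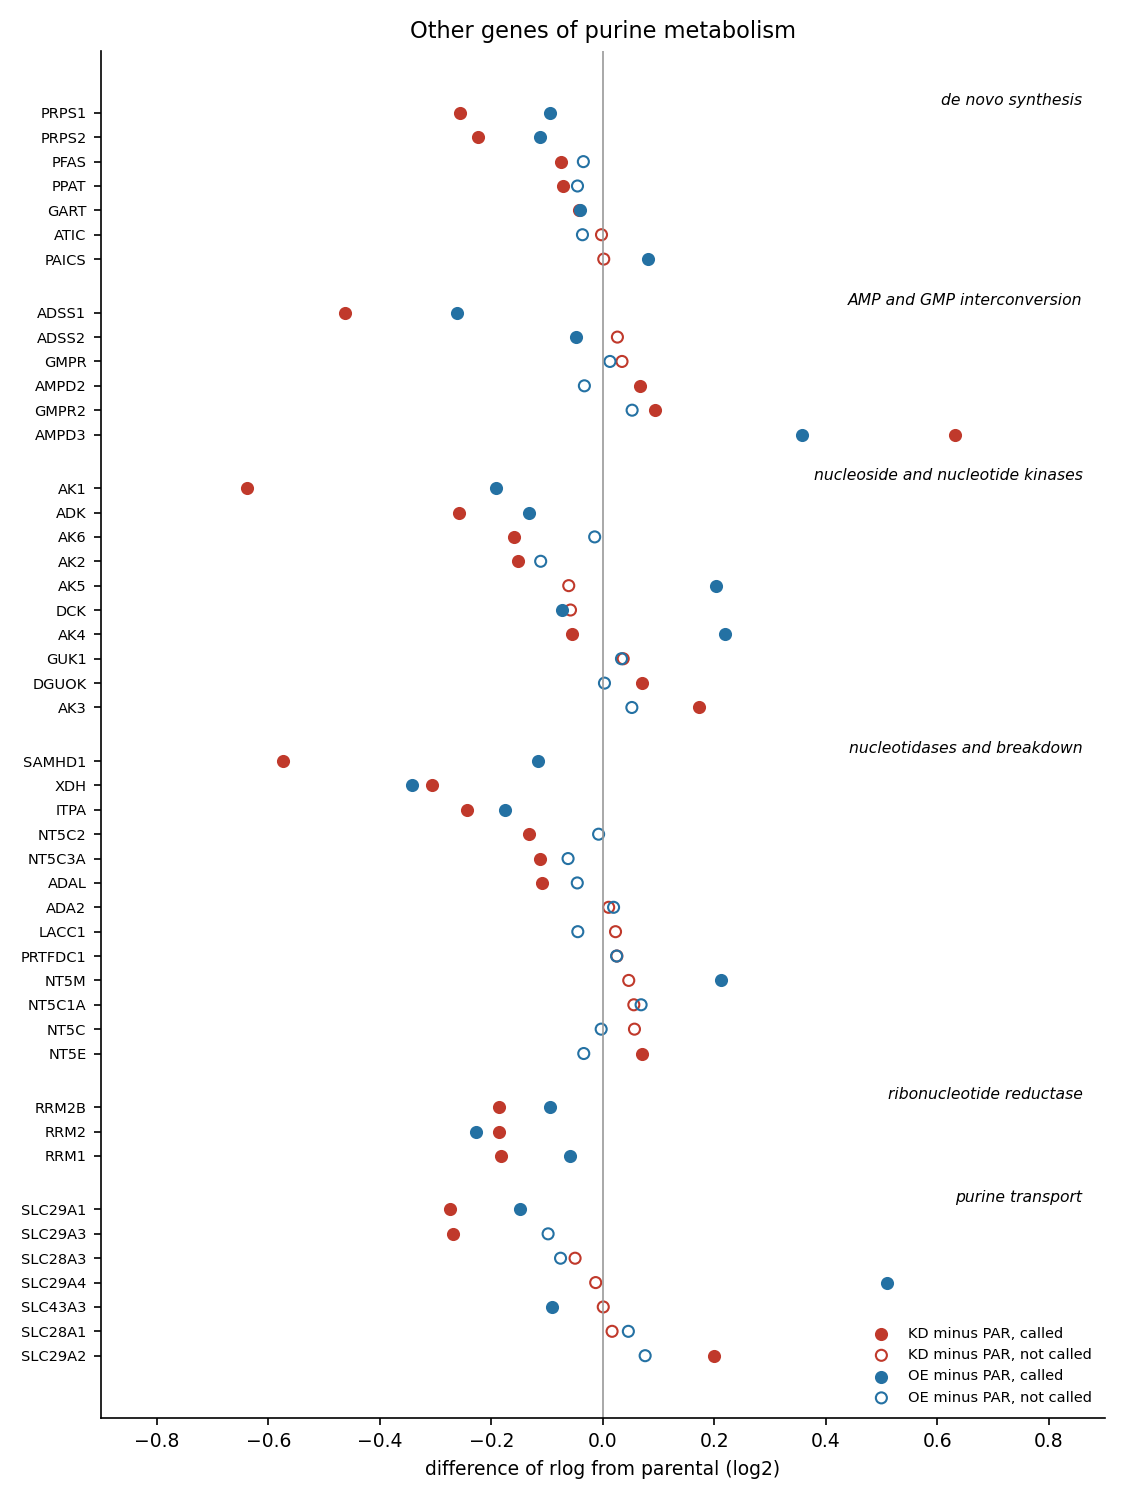
KD minus PAR and OE minus PAR differences of rlog (log2) for the 46 other genes of purine metabolism by role, with filled points for genes called by limma and open points for the rest. Most filled points lie left of 0 in both comparisons, which share the parental libraries, and AMPD3 in KD (0.63) and SLC29A4 in OE (0.51) lie farthest right.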

How the data were processed

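RNA from 9 libraries (parental, KD and OE, 3 each, grouped by their labels) was prepared with an unstranded TruSeq kit. The authors trimmed reads with cutadapt (quality 20, length 36), mapped them to GRCh38 with hisat2, counted per gene with featureCounts of Subread and dropped those whose counts summed to less than 10. Values were deposited as regularized log2 levels (rlog), for which the submitters' notes name DESeq2. Versions and the gene annotation are not given in the sources used here. One nominal read depth is stated for the study, the depth of each library cannot be read from these values, and 2 to the power of rlog summed to 34928732 to 35211774 per library.

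Group means were compared in all 9 libraries with limma 3.58.1 in R 4.3.3 (two-sided, variance trend on), with Benjamini-Hochberg adjustment over 22290 genes. The script was tested on simulated data. GENCODE 44 gave symbols, positions and exonic lengths. Named were the 8 enzymes, TRAP1, the genes of each purine role with the largest difference in KD or in OE, the 5 genes nearest to GDA and those within 1 Mb of it. Markers named beside their lists, LINC00665 and MYH14 as next decreases, and pseudogenes were named to give their levels. Further purine genes were named where their calls changed under an alternative. Some listed markers are not reported here by name. A planned test of GDA in OE was dropped, because its choice used the parental libraries. Members and lists were chosen with earlier results of these data known. Alternatives were other variance models, normalizations, a level filter, removal of 20-Mb block medians, a replicate block and leaving out each library.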

Additional observations from a re-analysis of the deposited data

How the results depend on the processing

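Of the differences of the 8 enzymes recomputed under the alternatives, 400 stayed on their side of the threshold or, without a test, moved by less than the replicate SD. In 4 of these a difference without a call changed sign, IMPDH2 in KD after quantile normalization (0.0224) and GMPS in OE after quantile normalization (0.00742), without PAR replicate 2 (0.0134) and without OE replicate 3 (0.00556). Leaving out any library changed no call among the 7 tested. Of 8 that changed, 2 of them of GDA and without a test, 7 did so on removal of 20-Mb block medians. IMPDH2 then reversed to 0.261 in KD and to -0.157 between OE and KD, GDA moved to -2.34 in KD and to 1.76 between OE and KD, and the calls of GMPS in KD (0.0372), APRT in OE (-0.039) and ADA between OE and KD (-0.0632) were lost. HPRT1 in OE was called at 0.0621 after quantile normalization. Among other purine genes, the block step reversed SLC28A3 in KD to 0.256 and DCK between OE and KD to 0.377, both then called, and DCK in OE to 0.0424 and AK3 between OE and KD to 0.00508, both then not called. Over all alternatives 46 calls of other purine genes were gained and 56 lost with the direction kept, and 59 differences without a call changed sign. The cause was not tested. With a difference over 0.5 required as well, genes called numbered 1110 in KD, 200 in OE and 793 between OE and KD, of which 0, 0 and 0 were among the 7 tested enzymes, and 3, 1 and 1 other purine genes. Correlations of same-numbered libraries were -0.071 to 0.14, and those of differently numbered libraries -0.14 to 0.075. Between KD and OE, same-numbered pairs had 0.12, 0.023 and 0.14, and differently numbered pairs -0.14 to 0.026, so a weak pairing there is not settled. With the replicate number as a block 12015, 7854 and 10623 genes were called, beside 11980, 7764 and 10552 without it. Of the 7 enzymes 6, 4 and 6 were called with and without it. Shrinkage, and a depth per library that rlog values do not show, limit what small differences at low levels can show.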
